A study of Homo sapiens with 9 samples.

Results

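RNA polymerase II (RNAPII) peaks that lie upstream of protein-coding promoters were examined in 5 lists of chromatin immunoprecipitation and sequencing (ChIP-seq) peaks from HEK293 cells, a human embryonic kidney line. A peak was taken as upstream when its summit, the base with the most sequenced tags, lay more than 500 and at most 3000 bp upstream of the transcription start site (TSS) of a coding gene, not within 500 bp of any coding TSS and not inside any coding gene. Of 142069 peaks, 2265 met this rule. The control hairpin gave 111 of 5287 peaks and the hairpins shRNA5 and shRNA7 gave 458 of 23698 and 510 of 32124. Cells grown without doxycycline gave 741 of 47060, and cells grown with the drug 445 of 33900.

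The study asked how RNAPII is distributed when RECQL5, a DNA helicase that binds the polymerase, is depleted or overproduced. In the hairpin arm, HEK293 cells had received a lentivirus carrying either a control shRNA or a hairpin that targets RECQL5 (shRNA5 or shRNA7). In the other arm, HEK293 T-REx cells carrying the full-length RECQL5 coding sequence on the plasmid pcDNA4/TO-RECQL5, whose promoter responds to doxycycline, were grown in 0.0 or 1.0 ng/ml of the drug, so that the drug-free cells carried the plasmid too. Each of the 5 RNAPII libraries and 4 libraries made with non-specific IgG was the 1 library of its group, so no difference below has a replicate check, no test between conditions was run, and intervals (95%) cover counting error only. The lists count the tags of each peak but not those of the whole library. The study's methods describe read totals as alike within an arm and higher in the hairpin arm, and differences in usable reads, IgG background and RNAPII level between libraries cannot be told apart. The 3 hairpin-arm lists analysed here hold fewer peaks than the study's methods state, most of all the control list, so every fold over it and every absence from it below holds for the list as analysed. Among genes taken as HEK293 markers, NEFL had a peak at its TSS in 4 lists (not with the control hairpin), and PAX2, LIN28B and NEFM had none in any list. ALB, PTPRC, MYOD1, INS and KRT5, markers of other cell types, had no TSS peak in any of the 5 lists.

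RNAPII is recruited at promoters and pauses shortly after it starts, which gives ChIP-seq its sharp signal at the TSS. Many mammalian promoters also start transcripts in the opposite direction, which are usually short and unstable but can run on as annotated long non-coding RNAs (lncRNAs). Past the cleavage site at a gene's end RNAPII goes on transcribing and slows before it is released, so the space upstream of a promoter can hold polymerase that starts there, leaves the promoter backwards or arrives from the gene before.

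Sequences of 300 bases centred on the summit, read from GRCh37 on the strand of the downstream gene, are shown for 6 upstream peaks that stand for the patterns described below. Capitals mark exact matches, on either strand, to 7 motifs. The promoter motifs were the TATA box, searched as TATAAA, the CCAAT box and the GC box bound by Sp1, searched as GGGCGG. The factor sites were that of AP-1, searched as TGACTCA, and the core of the NRF1 site, searched as GCGCATGC. The RNA signals were the polyadenylation hexamer, searched as AATAAA, and the 5′ splice site, searched as GGTAAG. The hexamer and the TATA box can share bases. The first 4 had a summit in the window in all 5 lists, and the summit of the control hairpin is shown. The TRIM69 peak (chr15:45019296-45019595, plus strand) had no other annotation and stood clear of the promoter. The CAMK2D peak (chr4:114683605-114683904, minus strand) had no other annotation and ran into the promoter. The TOMM40 peak (chr19:45393441-45393740, plus strand) lay behind the end of NECTIN2, and the ARID2 peak (chr12:46122339-46122638, plus strand) at the start of an antisense lncRNA. The GNG13 peak (chr16:851858-852157, minus strand, shRNA5 summit) was listed upon both RECQL5 hairpins and not with the control hairpin. The TCF3 peak (chr19:1653126-1653425, minus strand) was listed in the drug-free cells alone.

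TRIM69: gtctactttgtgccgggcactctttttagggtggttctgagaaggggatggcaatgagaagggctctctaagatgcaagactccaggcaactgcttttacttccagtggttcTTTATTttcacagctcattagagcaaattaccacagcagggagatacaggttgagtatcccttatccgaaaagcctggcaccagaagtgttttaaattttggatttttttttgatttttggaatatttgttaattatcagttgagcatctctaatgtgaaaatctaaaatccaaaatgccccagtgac
CAMK2D: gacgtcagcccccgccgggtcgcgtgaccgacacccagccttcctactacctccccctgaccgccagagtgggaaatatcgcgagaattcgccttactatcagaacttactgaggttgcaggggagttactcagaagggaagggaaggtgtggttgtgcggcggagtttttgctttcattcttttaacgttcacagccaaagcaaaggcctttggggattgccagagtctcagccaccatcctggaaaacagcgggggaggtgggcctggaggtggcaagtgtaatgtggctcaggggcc
TOMM40: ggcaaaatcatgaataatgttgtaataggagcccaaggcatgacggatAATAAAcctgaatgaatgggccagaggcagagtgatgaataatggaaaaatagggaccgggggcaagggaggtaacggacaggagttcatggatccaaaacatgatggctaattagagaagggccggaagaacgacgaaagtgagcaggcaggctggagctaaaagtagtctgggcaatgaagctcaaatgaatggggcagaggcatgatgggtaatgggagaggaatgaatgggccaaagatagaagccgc
ARID2: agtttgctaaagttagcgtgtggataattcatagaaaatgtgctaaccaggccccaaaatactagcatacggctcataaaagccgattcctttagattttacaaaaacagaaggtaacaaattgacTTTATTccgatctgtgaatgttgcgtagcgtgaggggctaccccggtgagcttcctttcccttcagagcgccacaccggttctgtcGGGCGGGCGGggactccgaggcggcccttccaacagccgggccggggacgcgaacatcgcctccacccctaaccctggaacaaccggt
GNG13: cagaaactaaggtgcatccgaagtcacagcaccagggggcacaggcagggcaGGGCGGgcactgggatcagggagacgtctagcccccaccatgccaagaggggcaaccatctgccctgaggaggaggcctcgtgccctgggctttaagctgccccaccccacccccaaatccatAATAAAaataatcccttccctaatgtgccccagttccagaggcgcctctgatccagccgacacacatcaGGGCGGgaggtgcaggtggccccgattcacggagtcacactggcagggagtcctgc
TCF3: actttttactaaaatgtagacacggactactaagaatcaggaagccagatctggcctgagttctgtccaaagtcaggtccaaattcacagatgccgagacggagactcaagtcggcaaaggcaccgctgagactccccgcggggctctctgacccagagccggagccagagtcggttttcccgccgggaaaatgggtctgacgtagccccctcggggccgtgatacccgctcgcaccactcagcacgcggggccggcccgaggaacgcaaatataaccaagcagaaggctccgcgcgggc

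The TRIM69 window had 40.3% GC and 2 CpG dinucleotides, and the TOMM40 window 48.0% GC and 7 CpGs; each held 1 polyadenylation hexamer and no other match. The CAMK2D window (57.0% GC, 14 CpGs) and the TCF3 window (59.3% GC, 24 CpGs) held none of the 7 motifs. The ARID2 window (52.7% GC, 20 CpGs) and the GNG13 window (61.7% GC, 9 CpGs) each held 2 GC boxes and 1 polyadenylation hexamer. The 6 windows thus ran from CpG-poor to CpG-rich, as did the upstream peaks in general (below).

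Upstream peaks made up a small share of every list. It was 2.10% with the control hairpin (1.75 to 2.52%), 1.93% upon shRNA5 (1.77 to 2.12%) and 1.59% upon shRNA7 (1.46 to 1.73%). Without the drug it was 1.57% (1.47 to 1.69%), and with the drug 1.31% (1.2 to 1.44%). Their tags were 1.67, 2.20, 2.0, 1.33 and 1.12% of all tags in peaks, in the same order. The window was far emptier than its mirror image inside genes. For each summit at the same distances downstream of a TSS there were 0.362 upstream with the control hairpin (0.291 to 0.449), 0.358 upon shRNA5 (0.322 to 0.398) and 0.377 upon shRNA7 (0.340 to 0.417), and 0.241 without (0.223 to 0.261) and 0.219 with doxycycline (0.198 to 0.243). Once divided by the sequence each window offers (32.6 Mb upstream and 45.7 Mb downstream), the downstream density was 1.97, 2.0 and 1.89 times the upstream one with the control hairpin, shRNA5 and shRNA7, and 2.96 and 3.26 times without and with doxycycline. Within the hairpin arm the 3 ratios lay inside one another's intervals, while both ratios of the doxycycline arm lay below all 3. The likeness within the hairpin arm did not hold at each setting. The order of the arms did, at times by a narrow margin. Peak length (below), IgG background and read totals differed between the arms, and their part in that order was not tested. Among peaks scoring at least 100 the control ratio was 0.255 (0.178 to 0.365) against 0.405 and 0.413 upon shRNA5 and shRNA7, and with lists of equal length the shRNA7 ratio was 0.510 against 0.362 for the control. With peaks clear of the promoter alone, the ratio without doxycycline, 0.227, was just below the 0.233 of shRNA5. Among peaks scoring at least 100, the ratios without and with doxycycline were 0.234 and 0.235, just below the control's 0.255. When every annotated start of a coding gene was used in place of 1 per gene, the ratios were 0.307, 0.267, 0.272, 0.168 and 0.156.

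Nearness to the promoter set where upstream summits fell. Within the first 500 bp of the window, summits were 4.78 times as dense as in the genome as a whole with the control hairpin, 3.73 times upon shRNA5, 2.40 upon shRNA7, 2.31 in drug-free cells and 2.47 with doxycycline. Beyond 1500 bp the density was near the genome average, from 0.578 to 1.14 times with the control hairpin, 0.970 to 1.2 upon shRNA5, 1.09 to 1.18 upon shRNA7 and 0.845 to 1.23 without doxycycline. With doxycycline it stayed under the average in each 500 bp step beyond 1000 bp, at 0.722 to 0.969 times. The median distance was 934 bp with the control hairpin (784 to 1198), 1130 bp upon shRNA5 (1025 to 1274), 1400 bp upon shRNA7 (1268 to 1573), 1340 bp in drug-free cells (1260 to 1428) and 1122 bp with doxycycline (1017 to 1270). Upstream summits upon shRNA7 thus lay farther out than those of the control hairpin, with intervals that did not meet. Those without and with doxycycline had intervals that just met.

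**Figure D1:**
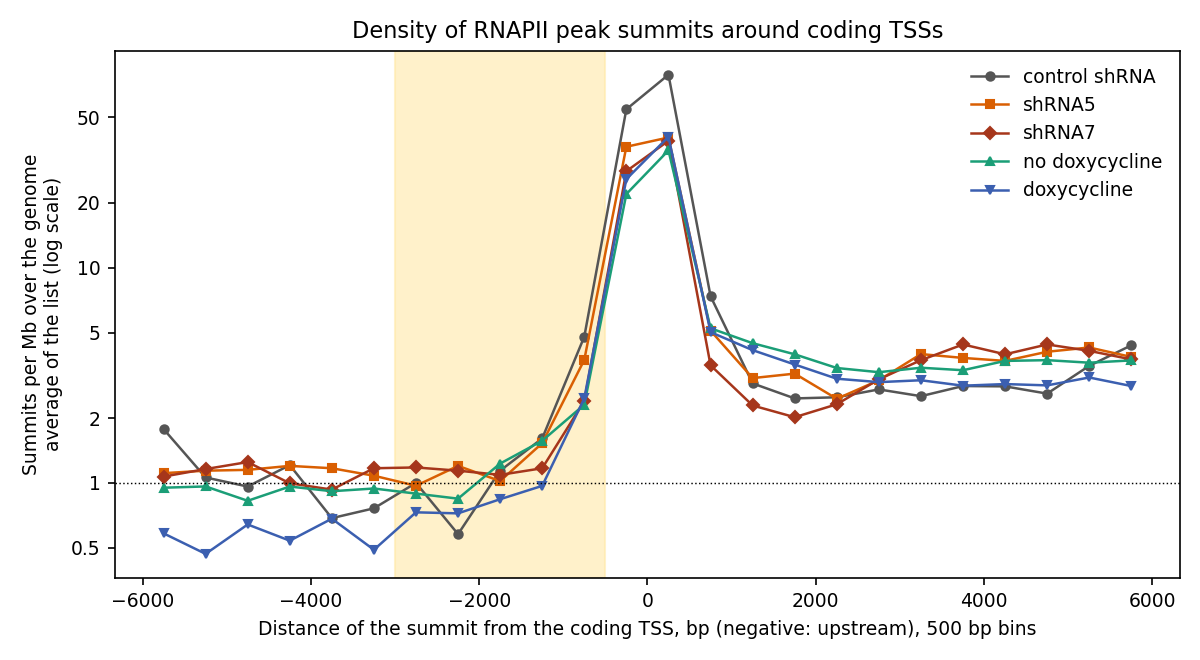
Density of RNAPII summits in 500 bp bins around coding TSSs, as the number per Mb of eligible sequence over the genome average of the same list (log scale), for the 5 lists; the shaded band is the upstream window and the dotted line the genome average. In the shaded band the lines fall from 2.31 to 4.78 next to the promoter to 0.730 to 1.18 at its outer end, and the downstream side stays above 2 throughout.

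The inner edge of the window cuts through the flank of the promoter peak. In the 100 bp just outside the rule the lists held 46, 147, 164, 144 and 112 summits (control, shRNA5, shRNA7, without and with doxycycline), and in the 100 bp just inside it 24, 64, 61, 64 and 52. At the outer edge, the last 100 bp held 2, 12, 18, 26 and 12 summits and the next 100 bp 0, 14, 23, 24 and 10. The first edge is a slope, and the second shows no step.

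Many upstream peaks were not free-standing. A peak whose interval reached the 500 bp on either side of a coding TSS is called joined here, and one that ended short of it apart. Joined peaks were 80 of 111 with the control hairpin (72.1%, 63.1 to 79.6%), 302 of 458 upon shRNA5 (65.9%, 61.5 to 70.1%) and 301 of 510 upon shRNA7 (59.0%, 54.7 to 63.2%). In the doxycycline arm they were 196 of 741 without the drug (26.5%) and 174 of 445 with it (39.1%). Peak length moves with this difference between the arms, since the median upstream peak of the hairpin arm was 1809 to 2296 bp long and that of the doxycycline arm 592 to 686 bp, and the share of joined peaks was therefore compared only within an arm. The target gene itself had a peak, the upstream one or another, within 500 bp of its TSS for 82.9, 86.7, 85.1, 78.9 and 78.7% of upstream peaks in the 5 lists.

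Apart peaks were weaker than joined ones in each list. The median number of tags was 84.5 in joined and 70.0 in apart peaks with the control hairpin, 132 and 69 upon shRNA5, and 196 and 73.0 upon shRNA7. Without doxycycline the medians were 28.0 and 12.0 tags, and with it 32.5 and 18.0. The intervals of the joined and apart medians overlapped in the control list (73.0 to 112 against 62.0 to 91.0) and not in the other 4. Per kb of peak the control medians were 48.5 and 42.4 tags, and those upon shRNA7 61.2 and 42.6. Apart peaks upon shRNA7 had a median false discovery rate (FDR), the authors' estimate of false calls, of 5.80%, against 1.16% for joined peaks of that list and 0.645% for the apart peaks upon shRNA5. The hairpin lists as a whole differed too, with medians of 2.47% upon shRNA7 and 0.430% upon shRNA5. With an FDR of at most 5%, the fold in upstream peaks upon shRNA7 given below was 3.31. Most apart peaks upon shRNA7 would not pass that limit, and their own fold was not recomputed with it.

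Upon RECQL5 depletion, upstream peaks were more numerous, as the lists as a whole were. There were 111 with the control hairpin, 458 upon shRNA5 (4.13-fold, 3.35 to 5.07) and 510 upon shRNA7 (4.59-fold, 3.74 to 5.64). The whole lists grew 4.48-fold and 6.08-fold, promoter peaks 2.62-fold and 3.13-fold, and peaks in the downstream window 4.17-fold and 4.41-fold. The upstream fold upon shRNA5 thus had the whole list's and the downstream window's folds in its interval and exceeded that of promoter peaks, and the fold upon shRNA7 was below that of its whole list. The comparison with the whole list turned with the setting, since the upstream share upon shRNA7 was below the control's 2.10% in the full lists and above it, at 2.42%, in lists of equal length. Among peaks scoring at least 100, the share was 1.75% upon shRNA7 and 1.69% with the control hairpin. Upon shRNA7 apart peaks numbered 209 against 31 (6.74-fold, 4.63 to 9.81) and joined peaks 301 against 80 (3.76-fold, 2.94 to 4.81), and these intervals just met. Upon shRNA5 joined peaks numbered 302 (3.77-fold) and apart peaks 156 (5.03-fold, 3.43 to 7.38). Upon each hairpin the interval of the apart fold held the fold of the whole list. In the downstream window, apart peaks numbered 119, 669 and 709 (control, shRNA5 and shRNA7). A rise in apart peaks was thus not particular to the upstream side. The hairpins themselves differed little upstream, by 1.11-fold (0.982 to 1.26), although the shRNA7 list was 1.36 times as long as that of shRNA5. These folds hang on where the lists stop: with each list of the arm limited to its 5287 strongest peaks, they were 1.11 (0.858 to 1.43) and 1.15 (0.895 to 1.49), and with a fold enrichment of at least 10 they were 1.48 and 1.89.

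With RECQL5 overproduced, upstream peaks numbered 445 against 741 (0.601-fold, 0.534 to 0.675). The whole list had a fold of 0.720, promoter peaks 0.830 (0.804 to 0.856) and downstream peaks 0.661 (0.625 to 0.699). The upstream fold was thus lower than that of the list or of promoters, and its interval met that of the downstream window. The difference lay in the free-standing peaks, which numbered 271 against 545 (0.497-fold, 0.430 to 0.575). Joined peaks numbered 196 and 174 (0.888-fold, 0.724 to 1.09), a difference within counting error. With both lists limited to the 33900 strongest peaks the upstream fold was 0.848 (0.747 to 0.962), and among peaks with a fold enrichment of at least 10 it was 0.263 (0.222 to 0.311). Median tags of upstream peaks were 13 without and 23 with the drug, the lowest 9 and 11, and the highest 561 and 842. Over all peaks of these lists the medians were 14 and 23, and in the downstream window 14 and 22. The difference in medians was thus that of the lists as a whole.

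**Figure D2:**
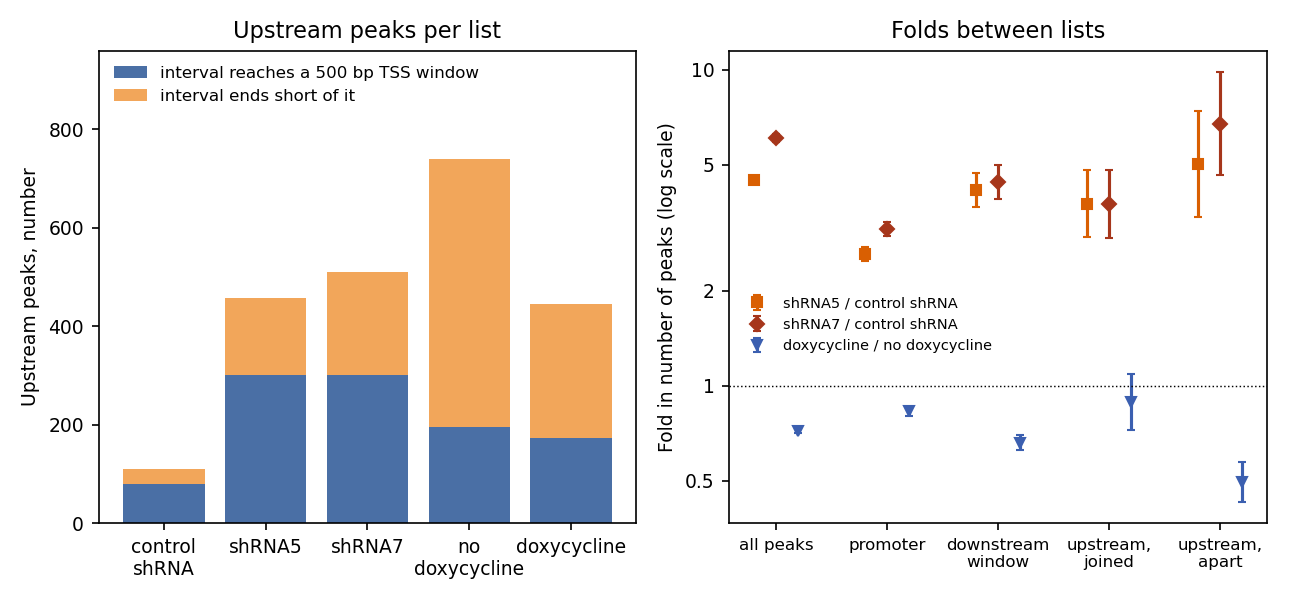
Left, number of upstream peaks in each list, split into those whose interval reaches the 500 bp either side of a coding TSS (joined) and those that end short of it (apart); right, fold in the number of peaks between lists (log scale) for all peaks, promoter peaks, downstream-window peaks and both kinds of upstream peak, with 95% counting intervals. The apart peaks have folds of 5.03 and 6.74 upon depletion, the highest of the 5 sets plotted, and of 0.497 with doxycycline, the lowest. Upon depletion their intervals (3.43 to 7.38 and 4.63 to 9.81) hold the folds of all peaks, 4.48 and 6.08.

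What the annotation holds at the summit was asked next, with each upstream peak given 1 setting. The start of an lncRNA on the strand opposite to the downstream gene, within 500 bp, was found at 19 upstream summits with the control hairpin (17.1%), 74 upon shRNA5 (16.2%), 60 upon shRNA7 (11.8%), 86 in drug-free cells (11.6%) and 82 with doxycycline (18.4%), whereas 2.90% of the bases of the window lie so near to one. The 3 kb behind the end of another coding gene held a further 42 (37.8%), 157 (34.3%), 167 (32.7%), 204 (27.5%) and 123 (27.6%), against 8.22% of the window. Other non-coding genes accounted for 14.4, 14.4, 19.6, 19.8 and 17.5%, against 19.9% of the window, which lay above the interval upon shRNA5 (11.5 to 17.9%) and, in the other 4 lists, inside it. The remaining 30.6, 35.2, 35.9, 41.0 and 36.4% had no other annotation, against 69% of the window. Antisense lncRNA starts and gene ends were thus several times as frequent as their space in each of the 5 lists, and their lowest interval bounds, 9.25% and 23.7%, lay above the shares of window bases. Those shares count all bases of the window alike, whereas upstream summits were densest next to the promoter. The part of distance to the TSS in this excess was not tested.

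The settings differed in distance and in ties to the promoter. Peaks at antisense lncRNA starts lay nearest to the TSS, at medians of 652 to 868 bp over the 5 lists, and 89.5, 81.1, 83.3, 53.5 and 65.9% of them were joined. Peaks behind gene ends lay farther out, at medians of 1419 to 1666 bp, with 64.3, 60.5, 62.9, 16.2 and 22.0% joined. The gene behind which they lay was on the same strand as the downstream one for 39 of 42, 145 of 157, 156 of 167, 194 of 204 and 115 of 123, a share that the rule nearly fixes, because a gene of the other strand ends there only if its body lies on the side of the promoter. Their summits lay a median of 448 bp past that gene's end with the control hairpin, 1135 bp upon shRNA5, 975 bp upon shRNA7, 824 bp without and 858 bp with doxycycline. Within 1000 bp of the end lay 29 of the 42 control summits (69%) and 67 of the 157 upon shRNA5 (42.7%).

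Between conditions the settings moved alike upon shRNA5, with folds of 3.89 for antisense lncRNA starts, 3.74 for gene ends, 4.12 for other non-coding genes and 4.74 for unannotated peaks. Upon shRNA7 the folds were 3.16 (1.90 to 5.26), 3.98, 6.25 (3.71 to 10.5) and 5.38, with overlapping intervals. With doxycycline, antisense lncRNA starts numbered 86 and 82 (0.953-fold, 0.705 to 1.29), while the fold was 0.603 for gene ends (0.482 to 0.754), 0.531 for other non-coding genes (0.404 to 0.698) and 0.533 for unannotated peaks (0.441 to 0.645). Peaks at antisense lncRNA starts were thus about as many with the drug as without it, and those with no annotation fewer, with intervals that did not meet.

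**Figure D3:**
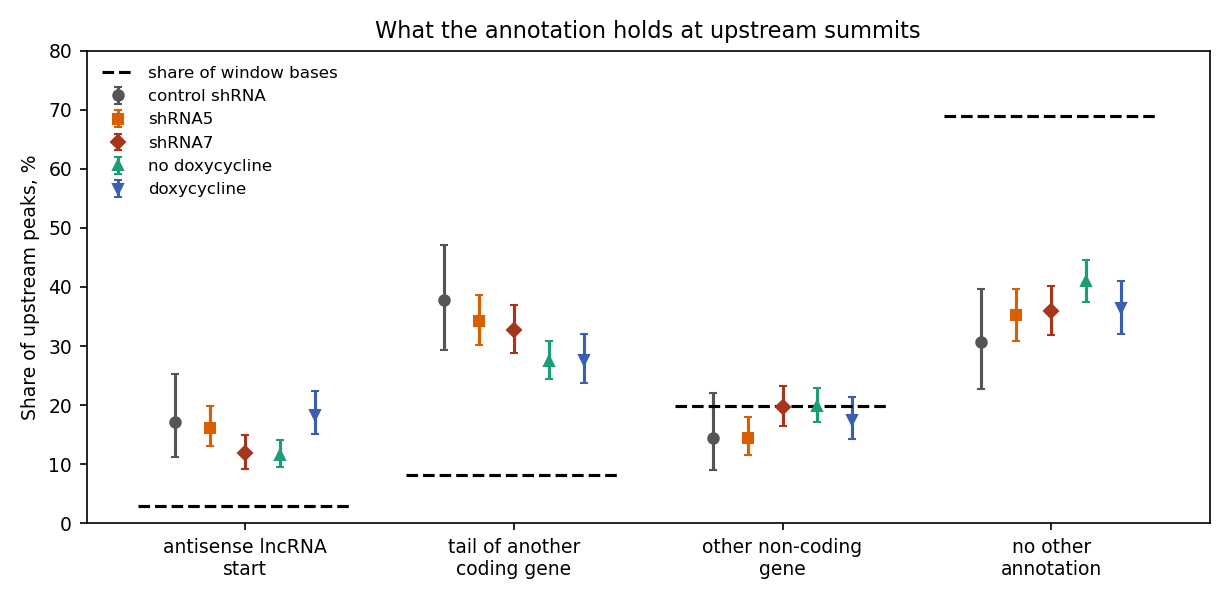
Share of the upstream peaks of each list whose summit lies within 500 bp of an antisense lncRNA start, within 3 kb behind another coding gene, in or near another non-coding gene, or in none of these (points, with 95% Wilson intervals), and the share of window bases in each setting (dashed lines). Antisense starts and gene ends sit above their dashed lines of 2.90 and 8.22% in each list, and unannotated peaks below 69%. The dashed lines are not matched for distance to the TSS.

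The sequence under upstream summits was unlike that of promoters. Over 300 bp, median GC was 53.3% with the control hairpin, 49.7% upon shRNA5, 51.0% upon shRNA7, 53.7% without and 54.3% with doxycycline, against 62.0, 63.0, 66.3, 68.3 and 67.3% at promoter summits of the same lists. CpGs were at a median of 0.342 to 0.497 of the number expected from the bases, against 0.832 to 0.871 at promoters. Downstream-window summits were close to the upstream ones, with median GC of 54.0, 49.0, 51.0, 54.3 and 52.7% and CpGs at 0.412 to 0.579. Over all peaks the GC medians were 54.3, 45.0, 44.3, 50.7 and 47.7% and the CpG medians 0.260 to 0.580. The contrast with promoters was thus not particular to upstream peaks. Apart summits were poorer in GC (45.7, 45.8, 45.0, 51.7 and 51.3%) than joined ones (55.0, 51.5, 54.3, 60.8 and 60.3%). Summits at antisense lncRNA starts resembled promoters most, with CpG medians of 0.717 to 0.821, and summits behind gene ends least, with 0.223 to 0.271.

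Short motifs differed between these sets as well. The GC box was in 23.4, 25.5, 26.9, 33.5 and 36.4% of upstream windows, 56.9, 57.9, 65.8, 72.3 and 69.2% of promoter windows and 31.9, 20.7, 20.9, 25.4 and 23.9% of the windows of all peaks. The polyadenylation hexamer was in 27.9, 27.7, 26.3, 21.1 and 24.5% of upstream windows and in 5.42 to 10.7% of promoter windows, with 21.9 to 32.6% over all peaks. The site of AP-1, the FOS and JUN factors of immediate gene responses, was in 7 of 111 upstream windows with the control hairpin (6.31%, 3.09 to 12.4%), 34 of 458 upon shRNA5 (7.42%, 5.36 to 10.2%), 39 of 510 upon shRNA7 (7.65%, 5.64 to 10.3%), 40 of 741 without (5.40%, 3.99 to 7.27%) and 31 of 445 with doxycycline (6.97%, 4.95 to 9.72%). Promoter windows held it in 2.05, 2.59, 2.30, 2.06 and 2.17%, below each of these intervals, and all peaks in 3.75, 5.50, 5.21, 4.72 and 4.85%. Against all peaks, the upstream interval was above the share upon shRNA7 and with doxycycline and held it in the other 3 lists. Matches to such short words are also met by base composition, which differs between these sets. The NRF1 core was in 0 of 111 control windows, a count that allows up to 3, and in 0.655, 0.588, 2.29 and 0.899% of the others. Promoter windows held it in 3.91 to 4.4%, and all peaks in 1.25 to 2.18%. In each list the upstream interval lay below the promoter share and held that of all peaks. A low NRF1 share was thus not particular to upstream peaks. The TATA box, CCAAT box and splice site were in 9.91 to 13.3%, 28.6 to 35.6% and 7.15 to 9.61% of upstream windows, with 14.2 to 22.1%, 29.7 to 35.4% and 9.02 to 11.4% over all peaks.

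Whether the same sites recurred was asked by overlap of at least 1 bp. Each of the 111 control upstream peaks was overlapped by an shRNA5 peak (100%, 96.7 to 100%), as were 97.4% of all control peaks, and 103 by an shRNA7 peak (92.8%, 86.4 to 96.3%), as were 88.4% of all. The overlap was near the background of the list in both. In the other direction, 101 of 458 upstream peaks upon shRNA5 met a control peak (22.1%, 18.5 to 26.1%, against 19.0% of all peaks) and 71 of 510 upon shRNA7 did (13.9%, 11.2 to 17.2%, against 11.7%). Between the hairpins, 409 of 458 shRNA5 upstream peaks met an shRNA7 peak (89.3%, 86.1 to 91.8%, against 85.2%), and 279 of 510 shRNA7 upstream peaks an shRNA5 peak (54.7%, 50.4 to 59.0%, against 51.9%). Joined and apart peaks of the control list recurred about equally upon shRNA5 (100 and 100%) and upon shRNA7 (92.5 and 93.5%), as did those of shRNA5 upon shRNA7 (90.1 and 87.8%). Joined peaks recurred more often where a longer list of this arm was looked up in a shorter one. By definition they reach a TSS window, where a promoter peak of the other list can meet them. Of the shRNA7 peaks, 67 of 301 joined and 4 of 209 apart ones met a control peak, and 221 of 301 joined and 58 of 209 apart ones an shRNA5 peak.

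In the doxycycline arm, 348 of the 445 upstream peaks with the drug met a peak without it (78.2%, 74.1 to 81.8%), more than the 61.8% of all peaks and less than the 97.1% of promoter peaks. Peaks of the downstream window did so in 72.3%, just below that interval. Of the 741 upstream peaks without the drug, 311 met a peak with it (42%, 38.5 to 45.6%, against 45.6% of all). Here too joined peaks recurred more often, 158 of 174 (90.8%) against 190 of 271 apart ones (70.1%) with the drug and, without it, 141 of 196 (71.9%) against 170 of 545 apart ones (31.2%). The definition favours this, since a joined peak reaches a TSS window, where a promoter peak of the other list can meet it. Joined peaks were also longer, with medians of 907 against 617 bp with the drug. The part of either was not tested.

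Overlap hid that the summit often moved out of the window. Of the 111 control upstream peaks, 60 met a peak upon shRNA5 whose summit was also upstream (54.1%), 38 a peak with its summit at a promoter (34.2%), 5 one inside a coding gene and 8 one elsewhere. Upon shRNA7 the numbers were 38 (34.2%), 42 (37.8%), 18 and 5, with no peak at 8. Without doxycycline, 216 of 741 upstream peaks met an upstream summit with the drug (29.1%), 66 a promoter summit (8.91%) and 430 no peak (58.0%). Where both summits were upstream they were near each other, at a median of 72.0 bp between the control and shRNA5 lists (42 of 60 within 200 bp), 91.0 bp between control and shRNA7 (29 of 38) and 96.0 bp between the lists without and with doxycycline (152 of 216).

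**Figure D4:**
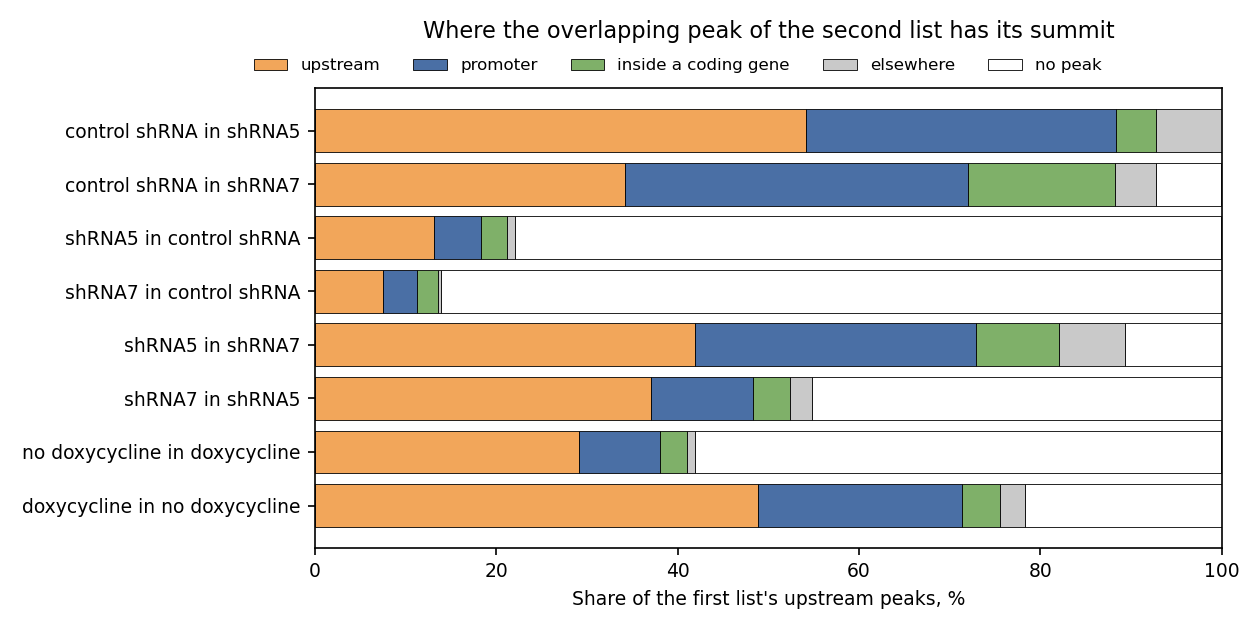
For the upstream peaks of the first list, the share that overlap a peak of the second list, split by where that peak has its summit (an upstream summit counted first, then promoter, then coding gene, then elsewhere), and the share with no overlapping peak. Control upstream peaks nearly all recur upon depletion but have an upstream summit in 54.1% (shRNA5) and 34.2% (shRNA7) of cases, and 58.0% of the upstream peaks without doxycycline have no peak with it.

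By gene, 14408 of 19834 coding genes had some sequence in the upstream window free of other coding genes and their starts. An upstream peak was found at 113 of them with the control hairpin (0.784%), 465 upon shRNA5 (3.23%), 522 upon shRNA7 (3.62%), 701 in drug-free cells (4.87%) and 425 with doxycycline (2.95%), and at 1374 in at least 1 list. Of these 1374 genes, 867 had one in exactly 1 list, 283 in 2, 130 in 3, 67 in 4 and 27 in all 5. Both hairpin lists held an upstream peak at 196 genes, 42.2% of the shRNA5 genes and 37.5% of the shRNA7 genes, and both doxycycline lists at 241, 34.4% of the genes without and 56.7% of those with the drug. These shares count upstream summits alone. Wherever the summit lay, an shRNA7 peak touched the window of 426 of the 465 shRNA5 genes. In turn, an shRNA5 peak touched that of 333 of the 522 shRNA7 genes.

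Of the 10 among these 27 genes with the highest ranks by significance score (10 times the negative log10 of the authors' p-value), 9 are described here. TRIM69, an E3 ubiquitin ligase gene on chromosome 15 (TSS at 45021186 in GRCh37, plus strand), had an unannotated peak that was apart in each list, with 94 tags with the control hairpin, 262 upon shRNA5, 210 upon shRNA7, 78 without and 93 with doxycycline. Its 5 summits, 1729 to 1802 bp upstream, spanned 73 bp. No peak lay within 500 bp of the TRIM69 TSS itself except upon shRNA7. It was a compact, free-standing peak of 1102 to 1675 bp in both arms.

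At CAMK2D, which encodes a calcium/calmodulin-dependent kinase subunit (chromosome 4, TSS 114683083, minus strand), the unannotated peak lay 541 to 746 bp upstream and held 60, 187, 287, 96 and 97 tags in the order control, shRNA5, shRNA7, without and with doxycycline. STK40, a kinase-like gene, was similar, with summits at 503 to 822 bp and 67, 297, 228, 77 and 105 tags. Both peaks were joined to the promoter in each of the 5 lists, and the knockdown peaks were longer, 2601 and 4596 bp against 1150 bp at CAMK2D.

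ARID2, a subunit of the PBAF chromatin remodeller (chromosome 12, TSS 46123489, plus strand), had an antisense lncRNA at each summit given here but not the same one. With the control hairpin and in the doxycycline arm the summit lay 686 to 1004 bp upstream, at ENSG00000289229, with 77, 78 and 112 tags (control, without and with doxycycline). Upon shRNA5 and shRNA7 it lay 2250 and 2256 bp upstream, at LINC00938, in peaks of 4244 and 14605 bp with 271 and 996 tags. The summits given thus differed by over 1 kb, while the longer peaks still covered the nearer start. The lists without and with doxycycline each held 2 upstream peaks at ARID2, and the higher-scoring one is given. A move of the summit cannot be told from a merging of sites in the longer peaks.

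A gene end lay within reach of the summits at 4 of these 9. The peak between ATP5F1B (ATP synthase beta subunit) and BAZ2A (a subunit of the NoRC silencing complex) held 167, 442, 880, 76 and 74 tags and lay 622 to 1161 bp from the BAZ2A TSS. Between NECTIN2 (a cell adhesion receptor) and TOMM40 (the pore of mitochondrial import), the 5 summits fell within 73 bp of one another and held 154, 255, 441, 109 and 60 tags, and those upon shRNA5 and without doxycycline were also at an antisense lncRNA start. Behind TTLL13, upstream of ENSG00000275674, they fell within 98 bp and held 146, 212, 297, 136 and 165 tags. At PYGM (muscle glycogen phosphorylase), the summit lay behind the splicing factor gene SF1 in 4 lists, with 222, 491, 1998 and 84 tags, and with doxycycline the listed peak was another, 884 bp upstream and of 14 tags. At IGF2BP1, an RNA-binding protein gene, the peak overlapped another non-coding gene and held 165, 1332, 1903, 197 and 151 tags. At each of these 9 genes more tags were counted upon both RECQL5 hairpins than with the control hairpin, in peaks that were also longer, and the part of depth and length was not tested.

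**Figure D5:**
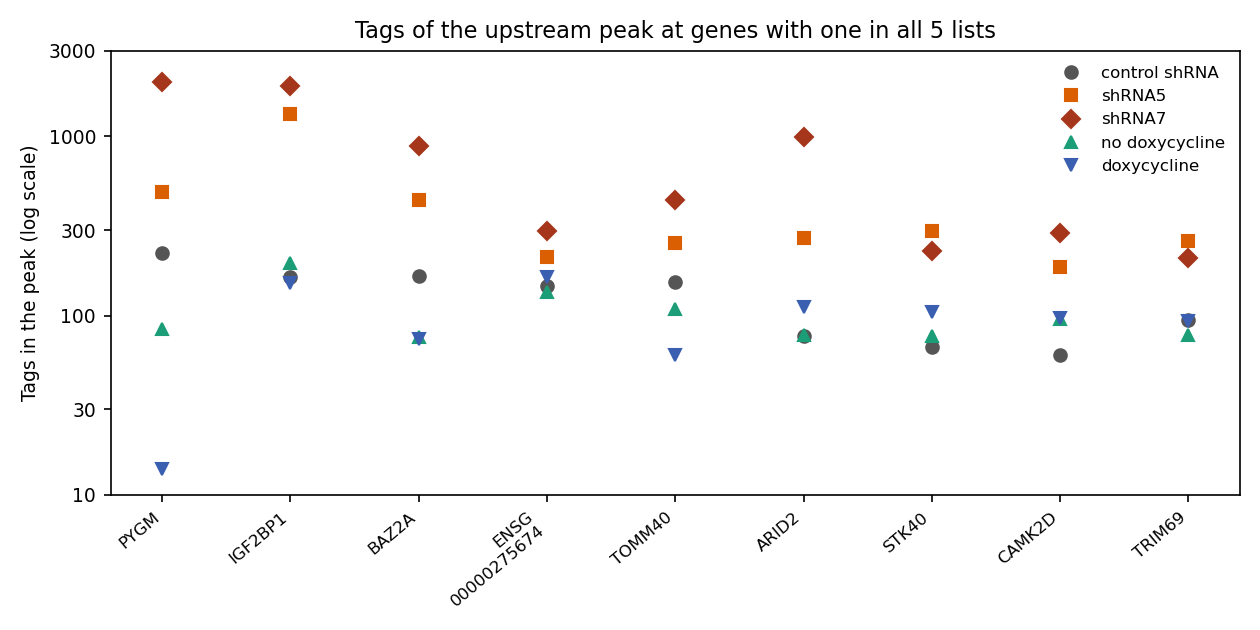
Tags in the upstream peak (log scale) at 9 of the 10 genes with one in all 5 lists and the highest ranks of significance score, 1 point per library. The control point lies below both RECQL5 hairpins at each gene, and the doxycycline-arm points run from 14 to 197 tags; lists differ in peak length and depth.

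Several of the 3 strongest upstream peaks of each list lay behind a neighbouring gene, though none of the 3 with doxycycline did. PRRT2, a synaptic membrane protein gene on chromosome 16 (TSS 29823514, plus strand), lies behind MAZ, a zinc finger transcription factor gene. Its upstream peak was among the 3 strongest with the control hairpin (425 tags), upon shRNA5 (1342 tags) and without doxycycline (500 tags), and with doxycycline it held 163 tags. The 4 summits lay 818 to 912 bp upstream and within 94 bp of one another, and upon shRNA7 a peak of 24146 bp with 3570 tags covered the window with its summit inside a gene. MAZ itself had an antisense lncRNA peak 664 bp upstream without (187 tags) and 720 bp upstream with the drug (128 tags), and no control peak touched its window. USP11, a deubiquitinase gene on the X chromosome, had peaks behind CDK16 of 554 tags with the control hairpin, 4945 upon shRNA7, 83 without and 117 with doxycycline, and the shRNA5 summit (838 tags) was at a promoter.

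At other strong sites the rule of the summit decided the outcome. Upstream of H2BC5, a histone H2B gene, the control summit lay 652 bp away (741 tags, 4140 bp), and in the other 4 lists a peak of 763 to 3331 tags covered the same window with its summit at a coding TSS. At SRRM2, a splicing factor gene with SRRM2-AS1 on the other strand, the summit with doxycycline was 557 bp upstream (304 tags), that without was 42 bp inside the TSS (178 tags), and the 3 hairpin-arm peaks of 14812 to 25201 bp had theirs inside a gene. B3GALNT2, a glycosyltransferase gene, had upstream summits at 586, 551 and 625 bp with the control hairpin (209 tags), upon shRNA5 (749) and with doxycycline (309), and summits at 477 and 432 bp, within the promoter window, upon shRNA7 (1153) and without the drug (254). TLE3, a corepressor gene, had an unannotated summit 1267 to 1329 bp upstream in 3 lists, with 78 tags (control), 103 (without) and 191 (with doxycycline), and no peak touched the window upon shRNA7. CCNL2 (cyclin L2) behind MRPL20, ENO3 (muscle enolase) behind PFN1 and RNF167, SMIM47 behind ACP4, and ZNF34 behind RPL8 also ranked among the 3 strongest of a list and had peaks touching the window in all 5 lists, with 356 to 2087, 468 to 3008, 424 to 3181 and 453 to 1285 tags.

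The genes with an upstream peak upon both RECQL5 hairpins and no control peak touching the window were ranked by the lower of both significance scores. Both comparisons use the same control library. At GNG13, a G protein gamma subunit gene, a peak behind CHTF18 held 271 tags upon shRNA5 and 1046 upon shRNA7, with summits 2 bp apart (1274 and 1276 bp upstream), and no peak touched the window in the other 3 lists. At ZNF768, the peak behind ZNF747 held 546 and 1060 tags with summits 8 bp apart, and in the doxycycline arm peaks of 66 and 71 tags had their summit at the TSS. KDM3B, a histone H3 lysine demethylase gene, had 468 and 487 tags, and 166 tags without doxycycline. With the drug, a peak of 8734 bp and 438 tags touched the KDM3B window with its summit inside a coding gene. IRX5, a homeobox gene opposite the lncRNA CRNDE, had 289 and 480 tags, and with doxycycline a peak of 18 tags. Without the drug, a peak of 82 tags touched the IRX5 window with its summit at a coding TSS. TRIM73 had 266 and 502 tags, with 19 tags without doxycycline, and its reads cannot be told with certainty from those of its near-identical copy TRIM74.

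Some upstream peaks were listed under 1 drug condition, with no peak of the other list touching the window, and the 10 named held 27 to 60 tags. The 5 with the highest scores without doxycycline were at TCF3, a transcription factor gene (50 tags, 662 bp upstream), ZNF362 (60 tags), P4HTM behind ARIH2 (54 tags), AC005488.1 (50 tags) and the kinase gene TESK1 (31 tags). At TCF3, ZNF362 and TESK1 no peak touched the window in any other list. The 5 with doxycycline were at GDF15, a stress-induced cytokine gene (56 tags, 842 bp upstream), TMEM81 behind RBBP5 (41 tags), FGF18 (36 tags), ZRANB1 (34 tags) and GJC1, a connexin gene (27 tags). GDF15 also had an upstream peak upon shRNA7 (159 tags, 910 bp) and TMEM81 upon shRNA5 (140 tags, 696 bp). Hairpin-arm peaks with summits elsewhere touched the windows of FGF18 (393, 1183 and 1592 tags: control, shRNA5 and shRNA7) and GJC1 (318 and 199 tags: shRNA5 and shRNA7). At ZRANB1 no other list had a peak.

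Gene families were set beside the share of all 14408 genes with an upstream peak in at least 1 list, 9.54%. HOX genes had one at 7 of 21 (33.3%), namely HOXD9, HOXD3, HOXD12, HOXD8, HOXA3, HOXA2 and HOXB2, with 1, 5, 3, 4 and 3 genes in the control, shRNA5, shRNA7, no doxycycline and doxycycline lists. At HOXD9 a summit 2597 to 2703 bp upstream, behind HOXD10, held 63 tags with the control hairpin, 186 upon shRNA5 and 140 without doxycycline. At HOXD12, behind HOXD13, peaks held 66 (shRNA5), 56 (shRNA7) and 17 tags (doxycycline), and at HOXD3 70 (shRNA5), 26 (without) and 14 tags (with doxycycline). Upon shRNA7 a single peak of 35298 bp and 3337 tags covered the windows of HOXD3, HOXD8 and HOXD9, with its summit inside a coding gene.

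Cytosolic ribosomal protein genes had an upstream peak at 9 of 54 (16.7%), in numbers of 2, 3, 0, 8 and 7 over the lists. RPL36 had an unannotated one in 4 lists, with 70 tags (control), 295 (shRNA5), 26 (without) and 25 tags (with doxycycline), 1688 to 2964 bp upstream. RPS15, behind DAZAP1, had 58 tags upon shRNA5, 28 without and 50 with the drug, RACK1 45, 30 and 22 tags, and RPL41 142 tags with the control hairpin and 63 with doxycycline. Upon shRNA7, wide peaks of 11219 to 28896 bp covered the windows of these 4 genes with summits elsewhere, and the count for that list was 0. Histone genes had 8 of 56 (14.3%; 4, 1, 2, 3 and 2), among them H2BC15 behind H2AC15 with 451, 610 and 1995 tags (control and both RECQL5 hairpins in turn) and H2AC17 behind H2BC17 with 82 tags with doxycycline. HIST2H2AA3 (63, 12 and 15 tags in the control, no doxycycline and doxycycline lists) has a near-identical copy, so its reads are uncertain.

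C2H2 zinc finger genes had 43 of 422 (10.2%; 1, 12, 15, 11 and 11), near the share of all genes. ZSCAN16 had 159 tags upon shRNA7 and 44 and 61 without and with doxycycline. ZNF865, behind ZNF524, had 72 and 371 tags upon shRNA5 and shRNA7, and ZNF850 14 and 12 tags in the doxycycline arm. Immediate early genes had 4 of 23 (17.4%), all in the doxycycline arm: DUSP1 (11 tags) and EGR3 (9 tags) without the drug, and KLF6 (17 tags) and ZFP36 (23 tags) with it. In the hairpin arm, larger peaks with their summit at a coding TSS touched the windows of DUSP1, KLF6 and ZFP36. They held 98, 703 and 1358 tags at DUSP1 (control, shRNA5 and shRNA7), 1196 and 1343 at KLF6 (shRNA5 and shRNA7) and 2434 at ZFP36 (shRNA5). The upstream count thus does not mean that RNAPII was absent there. Genes of RNAPII, its pausing and its termination had 4 of 29 (13.8%). POLR2D, an RNAPII subunit gene behind AMMECR1L, had 175, 287 and 12 tags upon shRNA5, upon shRNA7 and with doxycycline, CCNT2, a P-TEFb cyclin gene, 186 and 322 tags upon the hairpins, INTS4 (Integrator) 82 tags upon shRNA7 and the exonuclease gene XRN2 10 tags without doxycycline. SR and hnRNP splicing genes had 3 of 26 (11.5%), SRSF8 (64 tags upon shRNA7) and HNRNPA3 and SRSF3 (13 and 10 tags without doxycycline). Exosome and targeting genes had 1 of 5, ZCCHC8 (10 tags without doxycycline), and RecQ helicase and topoisomerase genes 0 of 6. With so few members per family and list, these counts are a description of single libraries.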

How the data were processed

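RNAPII ChIP-seq peak lists of 5 libraries were analysed. Per the study's methods and the submitters' processing notes, reads (GAIIX, CASAVA 1.8) were aligned to hg19 (GRCh37) with Bowtie 0.12.7, and the authors called peaks with MACS 1.4.2 for each library against IgG, 1 per hairpin and a single untreated one for the doxycycline arm. The authors' lists give each peak's position and summit, its tags as deposited raw counts, the deposited score (10 times the negative log10 of p, at least 50), the authors' fold enrichment ratio over local background and their FDR in percent. Library totals were not used here, so the depth behind each value is its tags.

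Peaks were placed on GENCODE 44 lifted to GRCh37, with the longest coding transcript per gene by genomic span, and classification was tested on simulated data. Settings were assigned in the order antisense lncRNA start, tail of a coding gene, other non-coding gene, none. The members and lists were chosen with earlier results of these data known. Genes are named by the coding TSS downstream of the peak: the 3 highest scores per list, up to 10 genes in all 5 lists by median rank of score, up to 5 upon both hairpins and up to 5 in 1 drug condition alone, and up to 4 per gene list by number of lists and score. Where a gene had several peaks, the one with the highest score is given, or for a window without a summit the touching peak with most tags. Intervals are 95% Wilson intervals, for shares, converted to odds where a fold or ratio is given, and order-statistic intervals for medians (Python 3.11.15, pandas 2.3.3, scipy 1.17.1). There were no replicates and no tests. Alternatives were stricter peaks, all coding starts, lists of equal length, apart peaks alone and stricter overlaps. A marker gene and a locus that met these rules are not reported here.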

Additional observations from a re-analysis of the deposited data

How the results depend on the processing

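Of 102 recomputed values for 16 results, 51 stayed inside the 95% interval of the reported value and 51 moved outside it. No ratio or fold crossed 1, and shares and overlaps had no such check. The shRNA7 share went from below the control's 2.10% to above it with lists of equal length. Among peaks scoring at least 100, the share of upstream peaks was 1.69% (control), 2.18% (shRNA5) and 1.75% (shRNA7), the upstream to downstream ratio 0.255 (control) and 0.405 (shRNA5), the folds 7.78 (shRNA5) and 9.08 (shRNA7), and the share of doxycycline upstream peaks overlapped without the drug 88.2%. With an FDR of at most 5% the shRNA7 fold was 3.31. With a fold enrichment of at least 10, the shares were 2.28% (shRNA5) and 1.95% (shRNA7), the ratios 0.412 and 0.435, the folds 1.48 (shRNA5), 1.89 (shRNA7) and 0.263 (doxycycline), and the overlaps of control peaks 78.8% (in shRNA5) and 74.1% (in shRNA7) and of doxycycline peaks 87.1%. With all coding start sites the ratios were 0.267 (shRNA5), 0.272 (shRNA7), 0.168 (without) and 0.156 (with doxycycline). With lists of equal length, the shares were 2.33% (shRNA5) and 2.42% (shRNA7), the ratios 0.414 and 0.510, the folds 1.11, 1.15 and 0.848, and the overlaps 82.0, 68.5 and 73.9%. The intervals of the first 2 folds then held 1. With apart peaks alone, the shares were 0.586, 0.658, 0.651, 1.16 and 0.799% (control, shRNA5, shRNA7, without and with doxycycline), the ratios 0.261, 0.233, 0.295 and 0.172 (control, shRNA5, shRNA7 and with doxycycline), the folds 6.74 (shRNA7) and 0.497 (doxycycline), and the doxycycline overlap 70.1%. Requiring 50% of both peaks gave overlaps of 45.9, 16.2 and 42.7%, and summits within 500 bp 55.9, 38.7 and 54.6% (control in shRNA5, control in shRNA7, doxycycline in no doxycycline). The cause of these moves was not tested.

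No paired analysis was possible because every condition had 1 library, and for the same reason no library could be left out. The weakest upstream peaks rested on 9 to 46 tags per list, so a site listed in 1 list alone may lie just under the threshold of another.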
